A study of Xenopus tropicalis with 3 samples.

Results

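In the urostyle of stage 56 Xenopus tropicalis tadpoles, 386 of the 1836 accessible sites called on chromosomes 1 to 10 shared no base with any site called at stage 61. They are 21.0% of the placed stage 56 peaks, placed meaning on one of those 10 chromosomes, and they are called absent peaks here; the other 1450 are called shared peaks. The rule used the positions of both peak lists, so the count of 386 describes the choice and is not a finding. Across all 3 lists of the series 322995 peaks were deposited.

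The groups used here are stage 61 and stage 56, each with 1 library of urostyle from tadpoles; genotype, strain, sex and the number of animals in a library remain not given in the sources used here, and stage and library cannot be told apart. The labels describe tissue dissected on ice, crushed and taken through Omni-ATAC, whereas the series' design text names laser capture, so the way the tissue was isolated is not settled. The remaining library, of stage 65, has a peak list with other chromosome names and was only counted. With 1 library a stage, no difference between stages was tested and no p-value is given. All intervals are 95% intervals for counting error only, exact Clopper-Pearson for shares and binomial order-statistic intervals for medians.

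ATAC-seq uses a transposase that inserts adapters where DNA is not wrapped tightly in nucleosomes, so a peak marks promoters, enhancers and other stretches of open chromatin. The urostyle is the rod of bone at the rear of a frog's trunk, which forms during metamorphosis, when thyroid hormone remodels the tadpole body and the tail is resorbed. In the usual staging of Xenopus, stage 61 lies in metamorphic climax and stage 56 before it. An absent peak is one without a call at stage 61, and the lists do not tell a closed site from a site under the calling threshold. The peak lists hold positions and no gene names, and no gene annotation or sequence of their genome build was used here, so the labelled tissue could not be checked against marker genes and sites are named by position, 1-based, in the files' own coordinates.

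The stage 61 list was the longer one, with 3376 placed peaks over 1605190 bp, against 1836 placed peaks over 916685 bp at stage 56. Sequencing depth is unknown for both. The smallest area was 20.02 at stage 61 and 20.02 at stage 56, and the smallest −log10 q was 1.44 at stage 61 and 1.45 at stage 56. In both lists the closest placed peaks of the same list lay 102 bp apart.

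Taken over all chromosomes, absent peaks were narrower and smaller than shared ones. Their median width was 259 bp (235 to 277), against 369 bp (349 to 387) for shared peaks, and their widths ran from 88 to 2186 bp, against 88 to 20483 bp for shared peaks. Their median area, the signal value that the peak caller gave a peak, was 77.1 (67.9 to 85.9), against 179 (164 to 200) for shared peaks. The middle 50% of absent peaks lay between areas of 40.6 and 163, and that of shared peaks between 66.4 and 522. The distributions overlapped over most of their range, and the shared peaks reached much higher. On chromosome 8 alone the areas went the other way, with a median of 214 in its 27 absent peaks and 161 in its shared peaks. Of those 27, 11 lay in a single window of 200 kb, where their median was 1385.

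The area per base was lower too. The mean height, area divided by width, had a median of 0.330 (0.296 to 0.349) in absent peaks and 0.502 (0.471 to 0.528) in shared peaks. The median −log10 q at the summit was 1.90 (1.85 to 1.93) in absent peaks and 2.18 (2.14 to 2.23) in shared peaks. Area, mean height and −log10 q all come from the peak caller and are not independent measures. Absent peaks made up 14.5% of the bases covered by placed stage 56 peaks (132961 of 916685 bp) and 9.11% of their summed area.

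**Figure D1:**
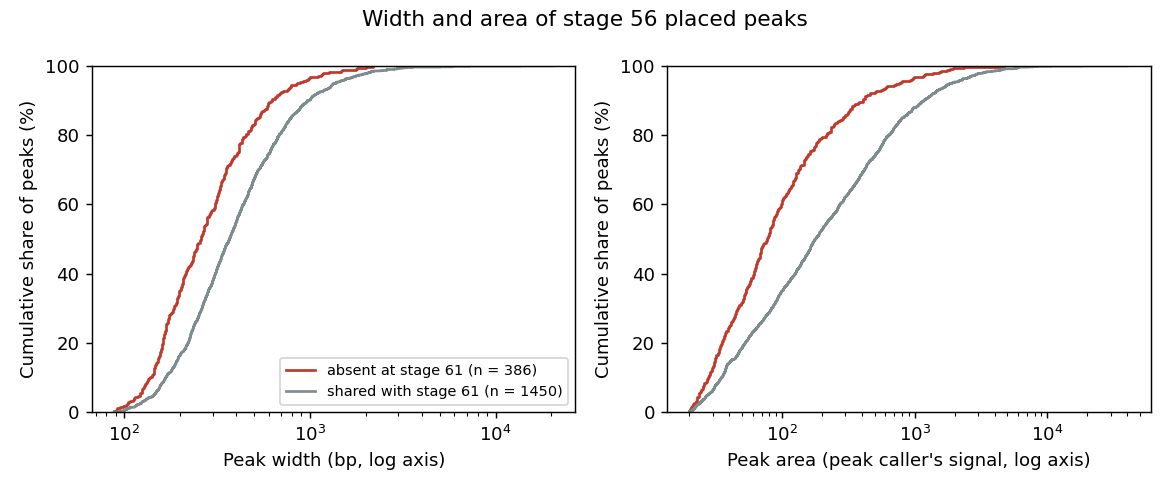
Cumulative share of stage 56 placed peaks (%) by width in bp (left) and by area (right), both on log axes, for 386 absent and 1450 shared peaks. The absent curve lies to the left of the shared one in both panels, with medians of 259 and 369 bp for width and 77.1 and 179 for area.

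When the placed stage 56 peaks were ordered by area and cut into 10 equal classes, the absent share was nearly level over the 5 smaller classes and then dropped. It was 34.8% (27.9 to 42.1) in the class of smallest area and 26.2% (20.02 to 33.2) in the fifth. In the sixth it was 15.8% (10.8 to 21.8), and in the class of largest area 7.07% (3.82 to 11.8), or 13 of 184 peaks. By width the decline was more even, with 37.5% (30.5 to 44.9) absent among the narrowest and 9.24% (5.47 to 14.4) among the widest. Very large stage 56 peaks were thus seldom absent: 2 of the 50 largest by area and 6 of the 100 largest. Because width enters the rule, these shares are a description.

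**Figure D2:**
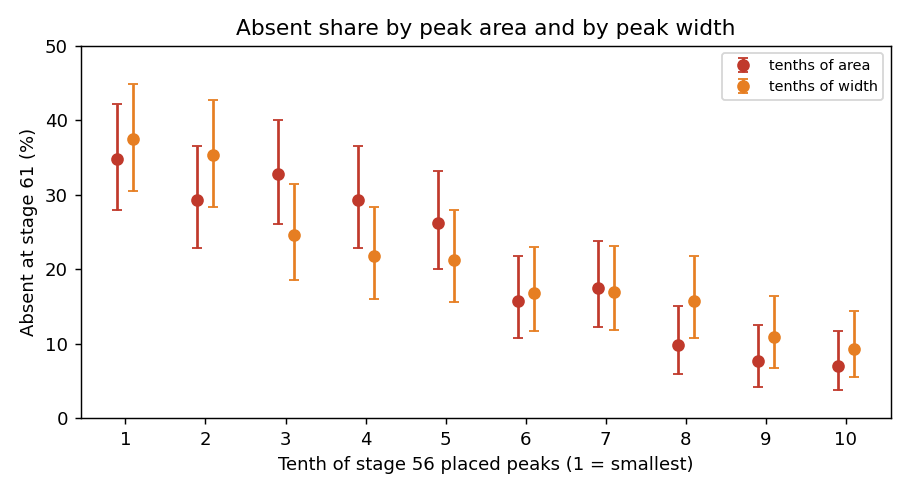
Share of stage 56 placed peaks absent at stage 61 (%) in 10 equal classes of area and 10 equal classes of width, from the smallest (1) to the largest (10); bars are exact Clopper-Pearson 95% intervals. Both shares decline, to 7.07% in the class of largest area and 9.24% in the class of largest width.

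The 12 largest absent peaks came from few places, while the 50 largest were spread over all 10 chromosomes. Of those 50, 12 lay on chromosome 8 and 10 on chromosome 3, which held 6.99% and 11.1% of all absent peaks. Of the 100 largest, chromosome 6 held the most, 22, which is below its 26.7% of all absent peaks. Of the 12 with the largest area, 8 lay on chromosome 8, 3 on chromosome 3 and 1 on chromosome 1. The first was at 97951480 to 97953471 on chromosome 8, with an area of 4716 (rank 16 of 1836), a width of 1992 bp and a −log10 q of 4.99. It lay 16912 bp from the nearest stage 61 peak. The second, at 97926721 to 97928521, had an area of 4226 (rank 23) and the highest −log10 q of all absent peaks, 5.04. The widest absent peaks were 2 on chromosome 3, at 37689443 to 37691628 (2186 bp, area 1846) and 37702718 to 37704823 (2106 bp, area 1752). The one on chromosome 1, at 47001516 to 47002668 (area 1153), lay 335 bp from a stage 61 peak and 214 bp from another stage 56 peak.

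Absence of overlap did not mean absence of a nearby stage 61 site. The gap from an absent peak to the nearest stage 61 peak, counted between peak edges, had a median of 2607.5 bp (1914 to 3747) and ran from 9 to 5207572 bp. This median rests on the peaks counted: it was 5386 bp against the 1836 largest stage 61 peaks, 14395.5 bp after stage 56 peaks within 1 kb were merged and 16686.5 bp without the 20 windows of 200 kb that held 5 or more absent peaks. A stage 61 peak lay within 500 bp of 67 absent peaks (17.4%, 13.7 to 21.5), within 1 kb of 130 (33.7%, 29.0 to 38.6) and within 10 kb of 249 (64.5%, 59.5 to 69.3). These neighbours were mostly sites also called at stage 56: the nearest stage 61 peak overlapped another stage 56 peak for 118 of the 130 absent peaks within 1 kb (90.8%). Most absent peaks within 1 kb of a stage 61 peak were therefore called beside a shared site. Of all placed stage 61 peaks, 1955 of 3376 (57.9%) overlapped no stage 56 peak. Stage 61 peaks picked for lying near a stage 56 peak are in places with stage 56 peaks, so the 90.8% cannot be read against that share.

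Just inside and just outside the rule, the margin was small. The 3 absent peaks closest to a stage 61 peak were all on chromosome 8, at 97898082 to 97898389 (gap 9 bp), 97878173 to 97878654 (72 bp) and 97912617 to 97913621 (92 bp). The 3 shared peaks with the smallest overlap were at 97900348 to 97900774 on chromosome 8 (57 bp), 36017340 to 36017504 on chromosome 5 (68 bp) and 45240481 to 45240759 on chromosome 9 (88 bp). Of the 1450 shared peaks, 49 (3.38%) were covered by stage 61 peaks over less than 50% of their length.

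At the other end, 80 absent peaks (20.7%) lay more than 50 kb from any stage 61 peak and 26 (6.74%, 4.45 to 9.71) more than 1 Mb. For comparison, the nearest stage 61 peak that a shared peak did not itself overlap lay more than 1 Mb away for 18 of 1450 (1.24%, 0.737 to 1.95). At shorter range the 2 distributions were alike: 64.5% of absent and 62.3% of shared peaks had such a stage 61 peak within 10 kb. Within 50 kb these shares were 79.3% of absent and 76.1% of shared peaks, so absent peaks were not more often remote at that distance. The 26 distant absent peaks lay on 8 chromosomes, and 17 of them had no other stage 56 peak within 50 kb. Peaks of the same locus are not independent, so the intervals of this paragraph are too narrow. The 26 peaks were small, with a median area of 50.9, a median width of 209 bp and a largest area of 460.

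Among absent peaks with an area above 147, the median of all placed stage 56 peaks, the farthest from stage 61 was at 79348356 to 79348979 on chromosome 1 (area 147.0, gap 3979264 bp). The next was at 109386669 to 109387423 on chromosome 5 (area 261, gap 2754870 bp), and then 15447461 to 15447673 on chromosome 10 (area 162, gap 1522298 bp). All 3 were also alone in the stage 56 list, with the next stage 56 peak more than 1 Mb off. Stage 61 peaks were sparse in general: 272 stretches of 1 Mb or more between neighbouring stage 61 peaks added up to 817 Mb of the 1271.5 Mb that chromosomes 1 to 10 spanned to their last peak. Of these stretches 39 held an absent peak, 73 absent peaks in all (18.9%). Any stage 56 peak wholly inside such a stretch is absent by the rule, so these counts are a description.

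**Figure D3:**
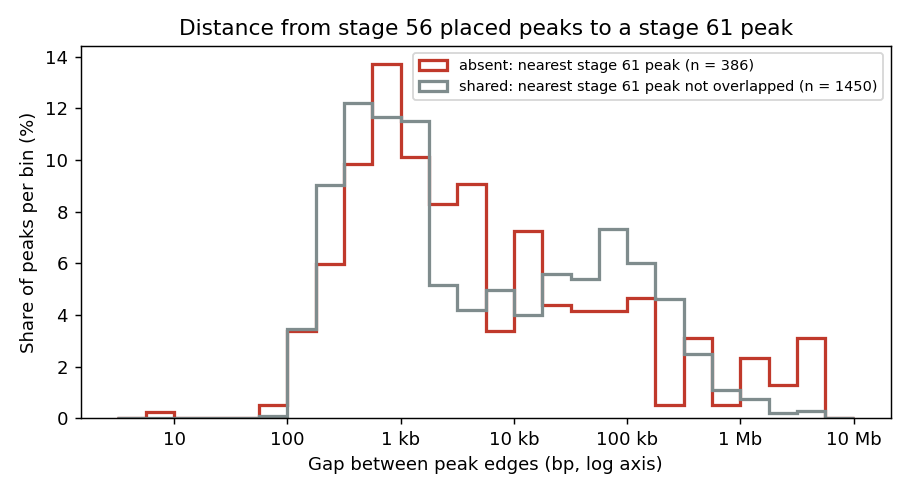
Share of peaks per bin (%) by the gap to a stage 61 peak in bp on a log axis: for 386 absent peaks the nearest one, for 1450 shared peaks the nearest one they do not overlap. Both have their main mode near 1 kb, and 6.74% of absent against 1.24% of shared peaks lie beyond 1 Mb.

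Absent peaks were crowded in the stage 56 list. Another stage 56 peak lay within 10 kb of 292 of the 386 absent peaks (75.6%, 71.0 to 79.8), against 858 of 1450 shared peaks (59.2%, 56.6 to 61.7). This excess of 16.5 percentage points was 5.56 points without the 20 windows of 200 kb richest in absent peaks, which were picked by that richness. No stage 56 peak lay within 50 kb of 58 absent peaks (15.0%) and of 448 shared peaks (30.9%). The median gap to the nearest stage 56 peak was 937.5 bp (749 to 1182) for absent and 1924.5 bp (1548 to 2793) for shared peaks.

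Among peaks of like area, those with a neighbour were more often absent, with a larger contrast where peaks were small. With placed peaks cut into 4 equal classes by area, the absent share in the class of smallest area was 41.0% (34.5 to 47.7) for peaks with a neighbour within 10 kb and 21.6% (16.4 to 27.4) for those without. In the second class it was 42.5% (36.5 to 48.7) with a neighbour and 12.4% (8.13 to 17.9) without. In the third class it was 18.3% (14.2 to 23.0) with a neighbour and 9.86% (5.50 to 16.0) without. In the class of largest area it was 8.24% (5.54 to 11.7) with a neighbour and 5.04% (1.87 to 10.7) without. The intervals were apart in the 2 classes of smaller area and overlapped in the other 2. Peaks with a near neighbour share a locus and are not independent, so the intervals are too narrow and their separation is no test.

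Absent peaks also lay next to each other. The nearest stage 56 neighbour was itself absent for 178 of 386 absent peaks (46.1%, 41.1 to 51.2), against 229 of 1450 shared peaks (15.8%, 13.9 to 17.8). Among peaks whose neighbour lay within 10 kb the shares were 51.4% (45.5 to 57.2) of absent and 16.8% (14.3 to 19.5) of shared peaks. Neighbouring peaks share a locus and are not independent, so these intervals are too narrow.

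Peaks of the stage 56 list that followed each other with gaps of at most 10 kb were joined into chains. Of 900 chains, 686 held a single peak, and 13.7% (11.2 to 16.5) of those single peaks were absent. In the 28 chains of 10 or more peaks, 143 of 526 peaks were absent (27.2%, 23.4 to 31.2), which is 37.0% of all absent peaks. These chains held 526 of the 1836 placed stage 56 peaks. Of these 28 long chains 24 were mixed, 3 were wholly shared and 1 was wholly absent. In the 93 chains of 3 to 9 peaks, 4 were wholly absent and 41 mixed. Wholly absent chains held 17 of the 108 absent peaks in chains of 3 to 9 and 18 of the 143 in longer ones. In chains of 2 peaks they held 24 of 41. In chains of 3 or more, an absent peak thus usually had a shared peak in its chain, though not always as its nearest neighbour. Within chains of 3 or more, 27.6% (24.3 to 31.0) of inner peaks and 21.5% (16.5 to 27.2) of first and last peaks were absent, and these intervals overlapped.

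Uninterrupted runs of absent peaks, with gaps of at most 10 kb and no shared peak between, were mostly short. A run of 1 was the case for 205 absent peaks (53.1%), and 99 (25.6%) were in the 23 runs of 3 or more. There were 4 runs of 5 or more members, and no stage 61 peak lay inside any of them. Their number was 20 against the 1836 largest stage 61 peaks, 7 when a shared peak had to be covered over 50% of its length and 1 after merging within 1 kb.

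The longest run stood on chromosome 3 at 37689443 to 37709501, where 18 absent peaks covered 62.8% of 20059 bp. Their areas ran from 21.2 to 1846 with a median of 199, and the gaps between them had a median of 374 bp and a maximum of 1057 bp. To its left, 5 stage 61 peaks stood between 37681625 and 37688361, with areas from 113 to 377. None of these 5 overlapped a stage 56 peak, as was the case for 1955 of all 3376 placed stage 61 peaks (57.9%). The last of the 5 ended 1081 bp before the run began. To its right the next stage 61 peak was 534280 bp away. A pair of further absent peaks, at 37629935 to 37631398 (area 1588) and 37632074 to 37633029 (area 557), lay 56413 bp or more to the left of the run. In the 200 kb window around this run, 37600001 to 37800000, the lists therefore had no site in common: 5 stage 61 peaks and 20 stage 56 peaks, all 20 absent.

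The second run, on chromosome 5 at 91494763 to 91519854, had 6 absent peaks that covered 7.95% of 25092 bp, with areas from 81.9 to 352. It was remote on its left side, where the last stage 61 peak was 5566973 bp away, and 15679 bp from one on its right. The other 2 runs were set in denser surroundings. On chromosome 6, 5 absent peaks at 24569690 to 24573029 (areas 64.1 to 348) had a stage 61 peak 286 bp before and 728 bp after them. On chromosome 7, 5 absent peaks at 68380468 to 68388154 (areas 98.6 to 1146) had stage 61 peaks 2264 bp before and 1269 bp after them, within a chain of 50 stage 56 peaks of which 14 were absent.

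The absent peaks of chromosome 8 between 97800001 and 98000000 included the 4 of largest area. The window held 13 stage 61 peaks, 8 of them without a stage 56 partner, and 17 stage 56 peaks, 11 of them absent. Lacking a stage 56 partner was common, at 57.9% of all placed stage 61 peaks. The 8 stage 61 peaks without a partner included areas of 3500, 1483, 1462 and 1415. The median area of the 11 absent peaks was 1385, against 77.1 over all absent peaks. Between 97800001 and 97912524 absent peaks and stage 61 peaks without a partner were interspersed, with gaps down to 9 bp. The last 6 absent peaks, from 97912617 to 97953471, formed a block with no stage 61 peak among them, and the next stage 61 peak began at 97970384.

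**Figure D4:**
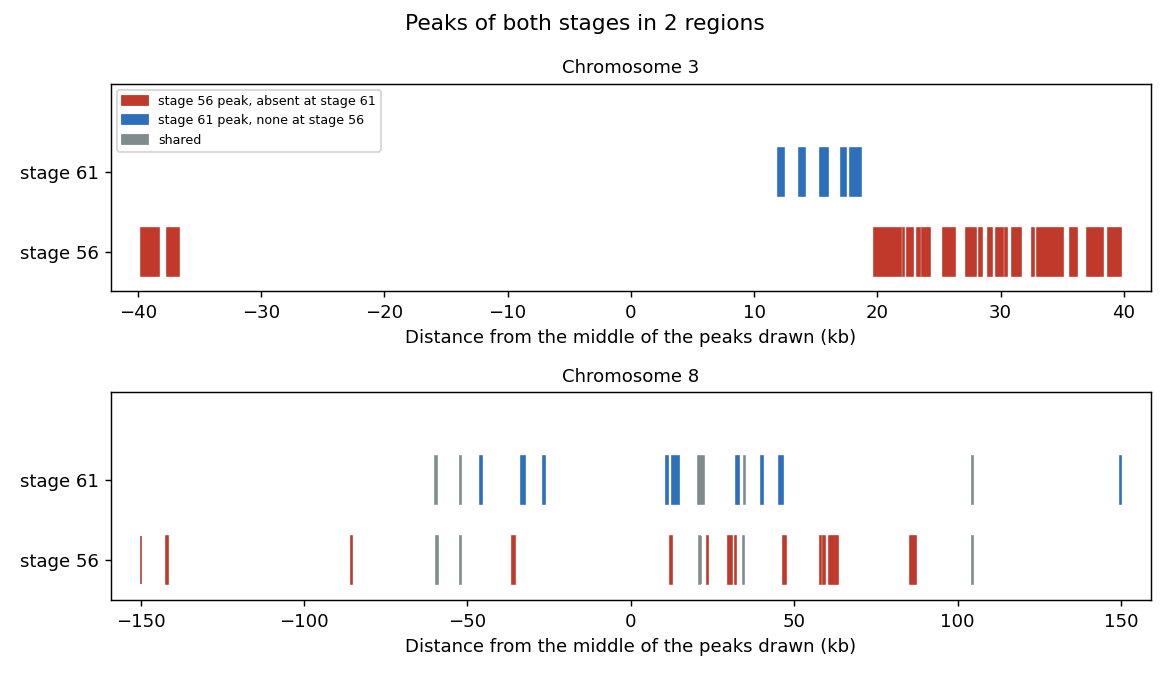
Peaks of stage 61 (upper rows) and stage 56 (lower rows) on chromosome 3 and chromosome 8, by distance in kb from the middle of the peaks drawn; the windows described in the text and 100 kb to each side were searched, box widths are peak widths and box heights carry no value. On chromosome 3 all 20 stage 56 peaks are absent at stage 61 and all 5 stage 61 peaks lack a stage 56 partner, and on chromosome 8 the last 6 absent peaks of the window, with areas up to 4716, have no stage 61 peak among them.

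Some of the absent peaks were gathered in few windows, and the others were scattered. In windows of 200 kb, 160 of the 679 windows with a stage 56 placed peak held an absent one, and 97 of them held just 1. The 20 windows with 5 or more held 184 absent peaks (47.7% of 386) among 449 of the 1836 placed stage 56 peaks. Outside those 20 windows the absent share was 14.6% (12.7 to 16.5), or 202 of 1387 peaks. The windows were picked by their number of absent peaks, so the 47.7% and the higher share inside, 41.0%, follow from the choice.

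In these 20 windows 33 of 314 stage 61 peaks had no stage 56 partner, 13 of them in the windows of chromosomes 3 and 8 described above. Over all placed stage 61 peaks, 1955 of 3376 (57.9%) had no stage 56 partner. Windows picked for absent peaks are rich in stage 56 peaks, so the count of 33 cannot be read against that share.

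By chromosome, the absent share was highest on chromosomes 6 and 3 and lowest on chromosomes 9 and 10. Chromosome 6 held 103 absent peaks of 308 (33.4%, 28.2 to 39.0), which is 26.7% of all absent peaks, although it had 16.8% of the placed stage 56 peaks. After stage 56 peaks within 1 kb were merged, it held 33 of 214 absent sites (15.4%). Its share of all merged sites was not computed. Chromosome 3 held 43 of 137 (31.4%, 23.7 to 39.9), an interval that overlaps that of chromosome 6. Chromosomes 1, 2, 4, 5, 7 and 8 lay between 16.8% and 23.2%, with overlapping intervals. Chromosome 9 held 17 of 227 (7.49%, 4.42 to 11.7) and chromosome 10 held 6 of 82 (7.32%, 2.73 to 15.2). The interval of chromosome 9 lay below those of chromosomes 1 to 6, while that of chromosome 10 overlapped those of 5, 7 and 8. Peaks of the same locus are not independent, so all these intervals are too narrow and their separation is no test.

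On chromosome 6, stage 56 peaks in general were gathered in few windows, absent ones among them. There, 9 of the 20 dense windows held 84 of its 103 absent peaks (81.6%) and 185 of its 308 placed stage 56 peaks. The windows were picked for their absent peaks, so the 81.6% follows in part from the choice. Of these 9 windows, 3 adjoining ones at 24400001 to 25000000 had 35 stage 61 peaks and 70 stage 56 peaks, 39 of them absent. Outside the dense windows the absent share was 15.4% (9.56 to 23.1) on chromosome 6 and 19.7% (12.9 to 28.0) on chromosome 3. The windows left out were picked for their absent peaks, so the lower shares outside them follow in part from the choice and are a description. Chromosomes 9 and 10 had no dense window, and their shares of 7.49% and 7.32% were the lowest of this comparison too. The interval of chromosome 9 still lay below those of chromosomes 1 to 4, while that of chromosome 10 overlapped all others. These intervals are too narrow as well.

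The stage 56 peaks of chromosome 9 had a median area of 115, the lowest of the 10 chromosomes. Among peaks with an area up to the placed median of 147, 15 of 128 were absent on chromosome 9 (11.7%), against 78 of 152 on chromosome 6 (51.3%). The part of peak area in the chromosome shares was not tested. The median area of absent peaks differed between chromosomes as well. It was 214 on chromosome 8 (27 peaks) and 139 on chromosome 10 (6 peaks). It was 99.3 on chromosome 3 (43 peaks) and 55.8 on chromosome 2 (41 peaks). Of the 27 on chromosome 8, 11 lay in the window described above, where their median was 1385.

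**Figure D5:**
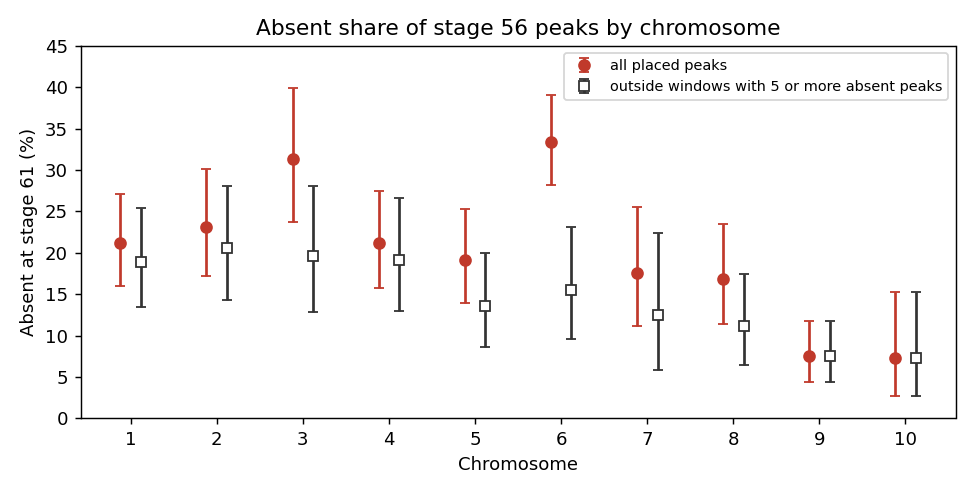
Share of stage 56 peaks absent at stage 61 (%) on chromosomes 1 to 10, for all placed peaks (filled circles) and outside the 20 windows of 200 kb with 5 or more absent peaks (open squares); bars are exact Clopper-Pearson 95% intervals. Outside those windows chromosome 6 stands at 15.4% and chromosome 3 at 19.7%, against 33.4% and 31.4% with all placed peaks, and chromosomes 9 and 10 are at 7.49% and 7.32% in both.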

How the data were processed

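The authors deposited 1 narrowPeak list per library, and the submitters' processing notes name the tools Genrich, MACS2, Picard and Bowtie2 without roles; the build and settings remain not given in the sources used here. For stages 61 and 56 the deposited signal is a peak area, which grows with width and depth and was compared only within a list. The deposited score equals 1000 times area over width, with a cap of 1000; 100% of peaks matched to within 1 unit. The deposited −log10 p and −log10 q values are those at the summit. The deposited stage 65 list holds a fold (ratio) in its signal column and was only counted.

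Overlap needed 1 bp. Gaps count the bases between peak edges. Chains, runs and neighbours used 10 kb, and dense regions used fixed windows of 200 kb. Named peaks are the 12 of largest area, the 3 widest, the 3 of highest −log10 q, the 3 farthest of above-median area, the 3 on either side of the rule and every run of 5 or more absent peaks; other regions were singled out after their values were seen. The members, rules and settings were chosen with earlier results of these data known. Code (Python 3.11.15, numpy 2.4.6, pandas 2.3.3, scipy 1.17.1) was tested on simulated peaks. No sequence was used.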

Additional observations from a re-analysis of the deposited data

Results flagged for a closer look

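Unplaced scaffolds were outside the comparisons above but carried absent peaks too. Of 2728 stage 56 peaks on scaffolds, 682 shared no base with a stage 61 peak (25%, 23.4 to 26.7), against 386 of 1836 on chromosomes 1 to 10 (21.0%, 19.2 to 23.0). The signal was listed because it lies in regions that no comparison used.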

How the results depend on the processing

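Taken over all chromosomes, the direction of the differences did not reverse under 7 other settings. Absent peaks kept the lower median width and area, and more of them than of shared peaks had a close neighbour. The sizes depended on the setting. The absent share was 23.7% when 50% of a peak had to be covered to be shared, 17.4% when no stage 61 peak could lie within 500 bp, 23.7% with areas of at least 50 in both lists, 39.4% against the 1836 largest stage 61 peaks, and 16.4% (214 of 1304) after stage 56 peaks within 1 kb were merged. In the same order, where they moved beyond the interval of the reported value, the median gap was 1723 bp (50% cover), 4863 bp (500 bp), 5386 bp (equal lists) and 14395.5 bp (merged). The median width was 280 bp with 50% cover and 324 bp with areas of at least 50, and the median area was then 126. The share with a neighbour was 80.8% with areas of at least 50, 53.3% after merging, 70.7% within 5 kb and 85.0% within 50 kb. An absent nearest neighbour was found for 56.2% with equal lists and 39.3% after merging. After merging, the leading chromosome, again 6, held 15.4% of absent sites. Without the densest window, on chromosome 3, no value left its interval. Without all 20 dense windows, a setting chosen after seeing the data, the values were 14.6% absent, 208.5 bp, an area of 64.5, a gap of 16686.5 bp, 55.9% with a neighbour, 39.6% with an absent neighbour, and 16.8% on the leading chromosome, then chromosome 1. There the excess of absent over shared peaks with a neighbour was 5.56 percentage points, against 16.5 in all. Runs of 5 or more numbered 1 after merging, 7 with 50% cover and 20 with equal lists, against 4. No paired analysis was possible because each stage has 1 library and no test was made. With depth unknown, a missing stage 61 call does not show that a site was closed.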
